A study of Mus musculus with 10 samples.

Results

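The genes described here make the red blood cell: the haemoglobin chains Hba-a1, Hbb-b1 and Hbb-b2, the membrane genes Slc4a1, Ank1 and Rhag, the transcription factors Klf1 and Gata1, and the alpha globin chaperone Ahsp. Members were every probe set, that is, every group of short probes read out as 1 signal, whose platform gene symbol was one of these names or an older form of it. Of the 9 genes, 8 had a probe set, and Ahsp was not analysed here. They held 17 of the 45037 probe sets used, and 13 of the 17 lay in the brighter 50% of probe sets, to which the test was applied. The arrays hold RNA of cochlea tissue, the hearing organ of the inner ear, from male mice aged 9 months: 5 arrays of PolgD257A/D257A mice (D257A) and 5 of Polg+/+ mice (WT). Polg encodes the enzyme that copies mitochondrial DNA. D257A mice carry the proofreading-deficient form on both alleles, and copying errors build up in their mitochondria. The study asked which cochlear transcripts differ in this state. Nothing in the labels says whether blood was removed from the tissue, or that each array is a separate animal, so p-values measure the spread between these arrays, which may be technical.

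Haemoglobin carries oxygen as a tetramer of alpha and beta globin chains, each holding a heme group. Red cell precursors switch on the globin, membrane and heme genes together under the factors GATA1 and KLF1, then lose their nucleus, and the young red cell that enters the blood keeps some of this RNA for a short time. In an organ the red cell transcripts therefore come from blood in its vessels and from any marrow dissected with the bone around it. Some member genes are also active in other cells, such as Ank1 in muscle and nerve cells. Mice with proofreading-deficient Polg are known to become anaemic with age. In bulk samples fewer cells of a type and less RNA per cell cannot be told apart.

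Signals had a trimmed mean (trim 2%) of 1494 to 1496 on all arrays, since the authors had scaled them. D257A replicate 2 and WT replicate 3 stood apart from their groups, with mean correlations of 0.89 and 0.914 to the other arrays of their group, and where leaving them out moved a member's value by over 1.5 times, the value without them is given. Among the marker lists, which show what else the samples held, 12 of 15 genes of the cochlea were tested and summed to 155881 to 231239 in D257A and 169578 to 238305 in WT arrays, so the labelled tissue was present on every array. Neutrophil and granule markers (13 of 15 tested) summed to 112285 to 324077 in D257A and 111758 to 187491 in WT arrays, with 2 called higher and 1 lower. Of these 13, 12 had a positive log2 fold change of D257A over WT (list median 0.814), and Ltf had one of -2.11. Over all tested genes 0.657% were called higher and 1.66% lower. Skeletal muscle markers (10 of 10 tested) summed to 22646 to 236268 in D257A and 122491 to 417881 in WT arrays, with 5 called lower. Platelet markers (8 of 12 tested, none called) summed to 18492 to 22169 in D257A and 13485 to 18521 in WT arrays. All 8 had a positive log2 fold change (median 0.278). Cell division markers (7 of 10 tested, none called), which also mark dividing precursors, summed to 10863 to 20277 in D257A and 13365 to 21934 in WT arrays. The part of these differences in the results on red cell genes was not tested.

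GATA1 binds GATA letters, and KLF1 binds CACCC letters, in the control regions of red cell genes. The 250 bases before the transcription start are shown for the 4 members that have an entry in the RefSeq promoter table (mouse GRCm38.p6), because Klf1 and Gata1 encode these factors and Hba-a1 and Rhag are switched on in the same precursors. The windows are Hba-a1 on chr11:32283422-32283671 (plus strand), Rhag on chr17:40810899-40811148 (plus strand), Klf1 on chr8:84901732-84901981 (plus strand) and Gata1 on chrX:7967911-7968160 (minus strand), each written 5′ to 3′ along its gene. Capitals mark CACCC and TGATAA on either strand, so that GGGTG and TTATCA are the same letters read on the opposite strand.
Hba-a1: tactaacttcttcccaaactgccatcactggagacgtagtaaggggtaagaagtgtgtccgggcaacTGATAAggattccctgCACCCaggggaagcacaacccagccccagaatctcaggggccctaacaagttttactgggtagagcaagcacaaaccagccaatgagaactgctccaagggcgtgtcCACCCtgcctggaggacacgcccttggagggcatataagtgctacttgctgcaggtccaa
Rhag: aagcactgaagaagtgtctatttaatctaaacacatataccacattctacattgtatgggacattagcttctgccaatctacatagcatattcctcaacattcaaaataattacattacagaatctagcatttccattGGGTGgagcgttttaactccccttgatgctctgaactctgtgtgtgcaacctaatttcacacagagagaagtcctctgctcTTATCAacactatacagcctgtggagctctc
Klf1: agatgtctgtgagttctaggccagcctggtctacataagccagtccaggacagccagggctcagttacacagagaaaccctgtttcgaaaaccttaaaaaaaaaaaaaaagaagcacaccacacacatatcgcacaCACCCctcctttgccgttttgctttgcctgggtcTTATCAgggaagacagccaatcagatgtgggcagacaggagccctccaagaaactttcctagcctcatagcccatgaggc
Gata1: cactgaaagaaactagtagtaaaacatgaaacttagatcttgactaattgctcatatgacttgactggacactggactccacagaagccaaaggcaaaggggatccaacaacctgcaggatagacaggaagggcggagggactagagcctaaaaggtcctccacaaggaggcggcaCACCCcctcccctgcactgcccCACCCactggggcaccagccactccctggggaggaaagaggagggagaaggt
CACCC stood in all 4 windows, at 167 and 60 bases before the start of Hba-a1, 112 before that of Rhag, 114 before that of Klf1, and 74 and 52 before that of Gata1. It stood in 52.0% of the 32851 windows of the table, so its presence is common. TGATAA, searched for after the windows had been read, lay 183 bases before the start of Hba-a1, 31 before that of Rhag and 80 before that of Klf1, and in 7.94% of all windows. AGATAA and TATAAA, in 9.99% and 12.4% of all windows, were not found in these 4. A match describes letters and shows no binding.

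None of the 13 tested member probe sets passed the test (limma, adjusted p from 0.0949 to 0.984), against 2.28% of all 22518 tested probe sets (1.03% called higher and 1.24% lower). At an unadjusted p under 0.05, 4 of the 13 passed (30.8%), against 16.9% of all tested probe sets: Hbb-b2 and Ank1 with a higher mean in D257A cochleae, and both tested probe sets of Slc4a1 with a lower one. The log2 fold change of D257A over WT was positive for 8 and negative for 5 (50.1% of all tested probe sets), with a median of 0.078, against -0.00054 over all tested probe sets. These counts take several probe sets of the same genes as separate. Most of the positive ones read globin, and the median is the value of an alpha globin probe set. In no member did the arrays of the groups separate completely, against 5.16% of all tested probe sets (2.47% with D257A higher). The globin, membrane and regulator genes are taken in turn.

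**Figure D1:**
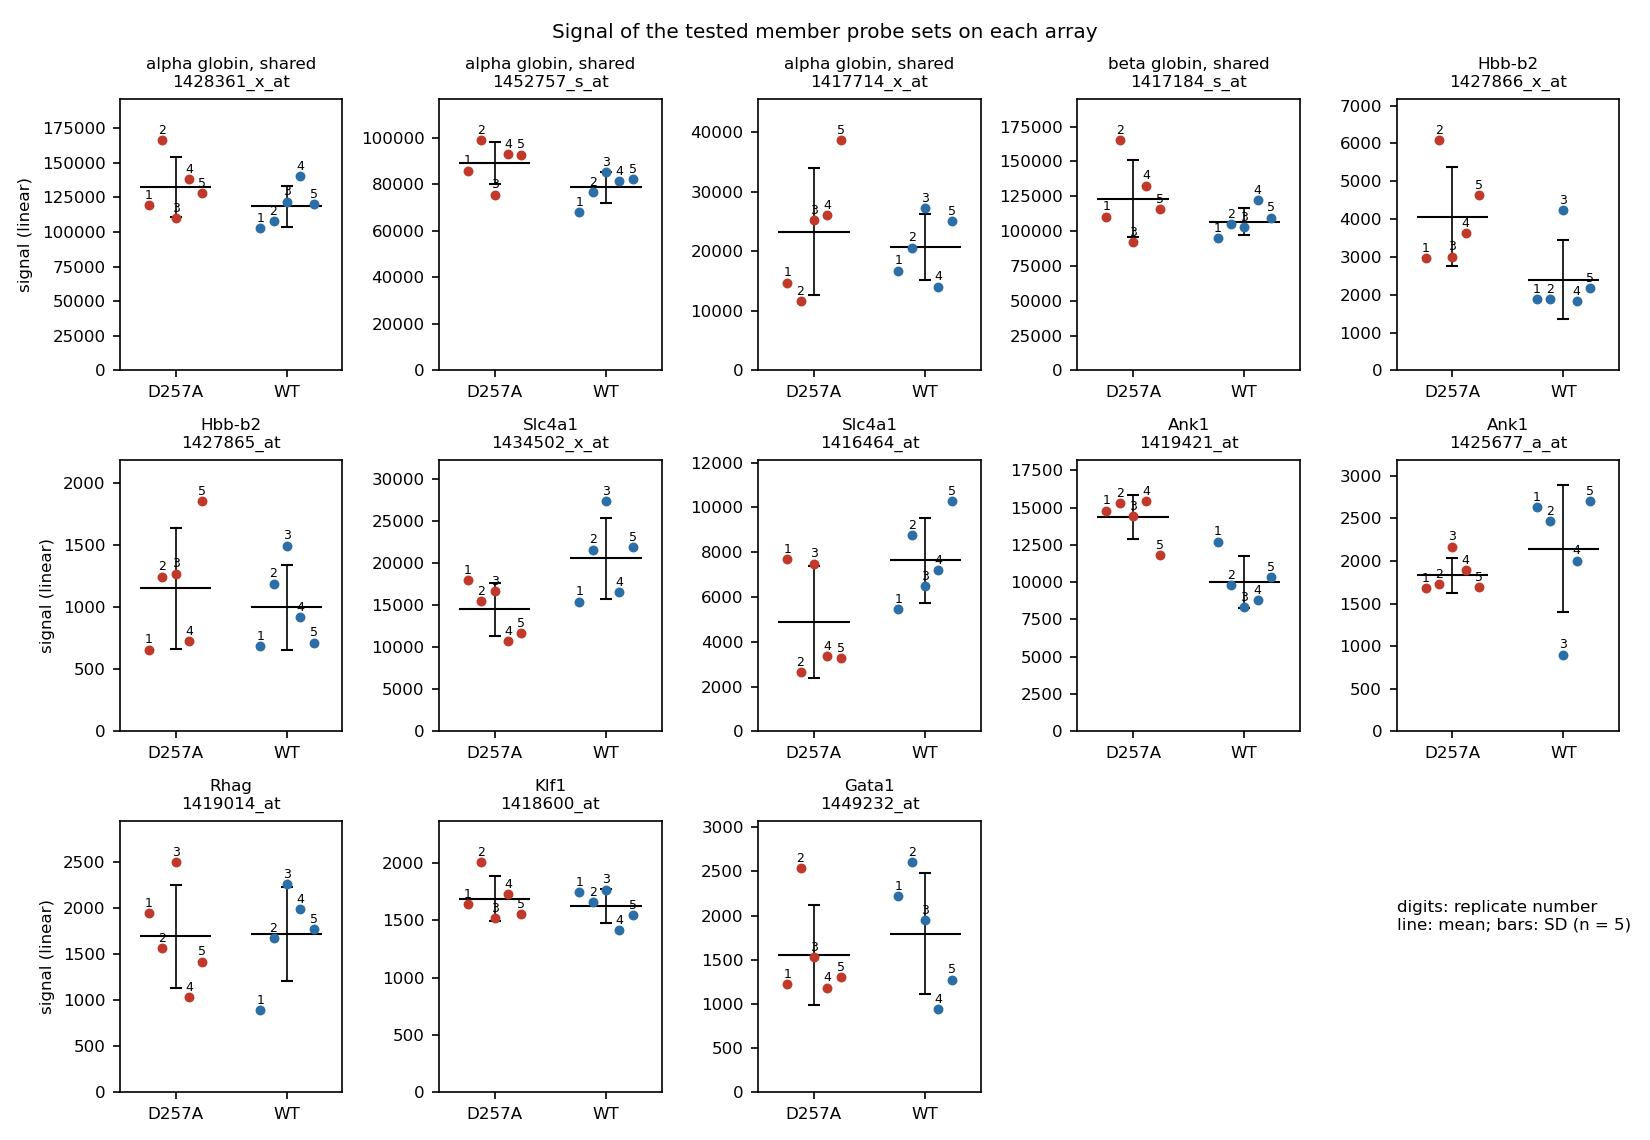
Signal (linear, vertical axes from 0) of the 13 tested member probe sets, with 1 point per array, its replicate number beside it, D257A on the left and WT on the right, the group mean as a line and the SD as bars (n = 5 each). The groups overlap in every panel, and for Ank1 1419421_at and alpha globin 1452757_s_at 4 of 5 D257A arrays lie above all WT arrays.

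The bright shared haemoglobin probe sets had somewhat higher mean signals in D257A than in WT cochleae, and none passed the test. The alpha globin genes Hba-a1 and Hba-a2 are near-identical, and 3 probe sets list both, so their signal cannot be assigned to 1 gene. The brightest of them, 1428361_x_at, had the highest mean signal on the arrays. Its signal was 119739.7, 166327.6, 110333.4, 138308.0 and 128145.5 on D257A replicates 1 to 5, against 102593.4, 107977.3, 122041.5, 140484.2 and 120272.0 on WT replicates 1 to 5. D257A replicate 2 was highest and the other arrays were mixed. The means were 132571 ± 21513 in D257A and 118674 ± 14685 in WT (SD, n = 5 each), with a log2 fold change of 0.15 (SE 0.14, limma adjusted p = 0.630), against 0.069 without D257A replicate 2, 0.081 without it and WT replicate 3, and 0.019 with quantile normalization. Its 95% interval, -0.155 to 0.463, leaves out a log2 fold change of 1 in either direction. Whether a signal this bright can still rise with the transcript was not tested.

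The second shared alpha globin probe set, 1452757_s_at, gave 85871.2, 98880.7, 75528.8, 93043.2 and 92754.4 on the D257A arrays, against 68134.0, 76525.3, 85220.8, 81501.0 and 82087.0 on the WT arrays. Of the D257A arrays 4 lay above every WT array, and replicate 3 lay within the WT range. The log2 fold change was 0.18 (95% interval -0.0890 to 0.448, limma adjusted p = 0.497), against 0.028 with quantile normalization and 0.171 without D257A replicate 2 and WT replicate 3. The remaining one, 1417714_x_at, was more uneven, from 11656.9 to 38685.2 in D257A and from 14091.1 to 27339.8 in WT, with a log2 fold change of 0.08 (limma adjusted p = 0.927) that turned to -0.023 with arrays centred on the median and was 0.404 without D257A replicate 2 and WT replicate 3. The only probe set of Hba-a1 alone, 1453574_at, was dim, at 35.4 to 504.0 in D257A and 37.6 to 279.0 in WT, and fell outside the tested range (adjusted p = 0.934 in the limma fit with no filter).

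Hbb-b1, the adult major beta chain, had no probe set of its own. It shares 1417184_s_at with Hbb-b2, the minor chain, and with Hbb-bs and Hbb-bt, which belong to a different mouse haplotype from Hbb-b1 and Hbb-b2. Which haplotype these mice carry was not tested, so whether the probe sets named for Hbb-b2 read that gene is not known. This probe set read 110386.4, 165204.1, 92334.4, 132647.0 and 115545.1 on the D257A arrays, against 95045.8, 104793.6, 102894.3, 122084.1 and 109748.2 on the WT arrays. Replicate 2 was the highest D257A array here too, while replicate 3 lay below all WT arrays. The means of 123223 ± 27518 in D257A and 106913 ± 9996 in WT (SD, n = 5 each) gave a log2 fold change of 0.18 (95% interval -0.158 to 0.523, limma adjusted p = 0.599). It was 0.069 without D257A replicate 2, 0.057 without it and WT replicate 3, and 0.0069 with quantile normalization.

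Of the tested globin probe sets, 1427866_x_at of Hbb-b2 had the largest log2 fold change. Its signal was 2961.5, 6084.0, 3009.0, 3631.7 and 4635.3 in D257A cochleae, against 1878.3, 1879.6, 4234.5, 1836.8 and 2181.9 in WT cochleae. WT replicate 3 lay among the D257A arrays, and the other 4 WT arrays lay below all of them. With means of 4064 ± 1316 in D257A and 2402 ± 1034 in WT (SD, n = 5 each), the log2 fold change was 0.78 (SE 0.27, 95% interval 0.198 to 1.36, unadjusted p = 0.0126, limma adjusted p = 0.157). With all arrays this probe set was thus not called. Without WT replicate 3, the array that went against the difference, the log2 fold change was 1.01 and the adjusted p 0.0365. Without it and D257A replicate 2 they were 0.85 and 0.0328. With all arrays the limma adjusted p was 0.0405 with array weights and 0.252 with the replicate block. The other Hbb-b2 probe set, 1427865_at, did not repeat this, at 657.6 to 1849.0 in D257A and 683.5 to 1492.7 in WT (log2 fold change 0.16, limma adjusted p = 0.842, and 0.27 without D257A replicate 2 and WT replicate 3). Averaged over both, Hbb-b2 had a log2 fold change of 0.47 (limma adjusted p = 0.385). An ending _x_at marks a probe set with probes that can also match similar transcripts, so other beta globin RNA may add to 1427866_x_at.

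The membrane genes did not share one direction, and the bright probe sets of Slc4a1 and Ank1 had opposite signs. Slc4a1 encodes band 3, the chloride and bicarbonate exchanger that is the most abundant protein of the red cell membrane. Its brighter probe set, 1434502_x_at, gave 18008.8, 15472.8, 16652.5, 10761.3 and 11718.8 on the D257A arrays, against 15433.7, 21607.9, 27340.9, 16551.2 and 21906.2 on the WT arrays. D257A replicates 4 and 5 lay below all WT arrays, and the other 3 lay within the WT range. The means were 14523 ± 3146 in D257A and 20568 ± 4776 in WT (SD, n = 5 each), with a log2 fold change of -0.50 (SE 0.20, 95% interval -0.931 to -0.0668, unadjusted p = 0.0269, limma adjusted p = 0.225).

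The second tested probe set of Slc4a1, 1416464_at, had 7691.0, 2631.7, 7494.2, 3344.9 and 3285.0 in D257A cochleae, against 5454.8, 8757.2, 6478.6, 7203.6 and 10272.6 in WT cochleae. D257A replicates 2, 4 and 5 lay below every WT array, whereas replicates 1 and 3 lay inside the WT range. Its log2 fold change was -0.75 (SE 0.31, 95% interval -1.43 to -0.0806, unadjusted p = 0.0310, limma adjusted p = 0.240). Both probe sets thus had a negative value whose interval left out 0 and an adjusted p that missed the threshold. The probe set 1431743_a_at was at 8.7 to 170.3 in D257A and 12.3 to 77.4 in WT, below the tested range.

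Ankyrin 1, encoded by Ank1, ties band 3 to the spectrin skeleton under the membrane. Probe set 1419421_at had the smallest p of all members. It read 14792.1, 15320.8, 14438.9, 15417.8 and 11824.7 on the D257A arrays, against 12724.6, 9810.4, 8327.2, 8809.4 and 10360.1 on the WT arrays. Of the D257A arrays 4 lay above all WT arrays and replicate 5 lay below WT replicate 1. The means of 14359 ± 1472 in D257A and 10006 ± 1718 in WT (SD, n = 5 each) gave a log2 fold change of 0.53 (SE 0.15, 95% interval 0.199 to 0.861, unadjusted p = 0.00430, limma adjusted p = 0.0949). The second tested Ank1 probe set, 1425677_a_at, had the opposite sign, with 1676.3 to 2166.1 in D257A, against 900.5 to 2698.8 in WT (log2 fold change -0.13, limma adjusted p = 0.855). WT replicate 3 held the lowest of these signals, and without it the log2 fold change was -0.41 (limma adjusted p = 0.186), or -0.39 without D257A replicate 2 as well. Averaged over both probe sets, Ank1 had a log2 fold change of 0.20 (limma adjusted p = 0.654). Ank1 also makes transcripts in muscle and nerve cells, and these signals do not tell its transcripts apart. Probe sets 1443291_at and 1452512_a_at were below the tested range, at 141.7 to 678.0 and 152.9 to 301.1 in D257A and 147.2 to 1017.8 and 24.1 to 270.2 in WT.

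Rhag encodes the Rh-associated glycoprotein, which carries the Rh proteins to the membrane and forms a gas and ammonium channel. Its 1 probe set, 1419014_at, had 1944.0, 1568.4, 2496.5, 1032.4 and 1419.4 in D257A cochleae, against 896.6, 1675.2, 2260.3, 1986.1 and 1769.2 in WT cochleae. The groups overlapped over most of their range. Rhag had a log2 fold change of -0.02 (95% interval -0.623 to 0.584, limma adjusted p = 0.984), and of 0.11 without D257A replicate 2 and WT replicate 3.

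The regulators differed less than their spread. Klf1, the factor that switches on adult beta globin, was even across arrays: 1644.1, 2006.0, 1517.1, 1726.1 and 1554.8 in D257A, against 1746.1, 1659.4, 1767.0, 1413.9 and 1547.9 in WT (probe set 1418600_at). The log2 fold change was 0.05 (95% interval -0.271 to 0.375, limma adjusted p = 0.898), and its sign turned with arrays centred on the median (-0.049) and without D257A replicate 2 (-0.011), with 0.019 when WT replicate 3 was left out too. Gata1, needed for red cell and platelet precursors, gave 1224.0, 2537.0, 1529.9, 1185.0 and 1300.1 on the D257A arrays, against 2218.1, 2602.9, 1945.5, 941.9 and 1274.5 on the WT arrays (probe set 1449232_at). Arrays of each group lay at both ends of the range, with a log2 fold change of -0.18 (95% interval -0.814 to 0.464, limma adjusted p = 0.815), and of -0.31 without D257A replicate 2 and WT replicate 3.

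Ratios of members on the same array do not depend on a common factor by which the array was scaled. A normalization that acts differently on bright and dim signals can change them, and they were not recomputed with one. With quantile normalization the log2 fold changes of alpha globin, Slc4a1 and Klf1 were 0.019, -0.511 and 0.092, against 0.154, -0.499 and 0.052. Of 3 pairs compared, shared alpha globin over Slc4a1 had log2 ratios of 2.73, 3.42, 2.73, 3.68 and 3.45 in D257A, against 2.73, 2.32, 2.16, 3.08 and 2.46 in WT cochleae. D257A replicates 2, 4 and 5 lay above all WT arrays, and replicates 1 and 3 lay level with WT replicate 1. The difference of 0.65 had an exact two-sided permutation p of 0.0476 and an adjusted p of 0.0714 over the 3 pairs. Slc4a1 over Klf1 averaged 3.07 ± 0.36 in D257A and 3.62 ± 0.31 in WT (SD, n = 5 each), a difference of -0.55 (exact permutation p = 0.0397, adjusted p = 0.0714). Here D257A replicates 2, 4 and 5 lay below all WT arrays. Alpha globin over Klf1 averaged 6.27 ± 0.095 in D257A and 6.17 ± 0.29 in WT (SD, n = 5 each), a difference of 0.10 (exact permutation p = 0.492, adjusted p = 0.492). No pair passed after adjustment with all arrays. Without D257A replicate 3 both pairs with Slc4a1 had an adjusted p of 0.0476, as had Slc4a1 over Klf1 without WT replicate 1, whereas without D257A replicate 2 or without WT replicate 3 both had 0.143. The pairs with Slc4a1 share its values. With all arrays the smallest p that this design allows is 0.00794, and with 1 array left out the smallest possible p is larger. For Slc4a1 over Klf1 without WT replicate 1, D257A arrays reached up to 3.44 and the remaining WT arrays began at 3.53.

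**Figure D2:**
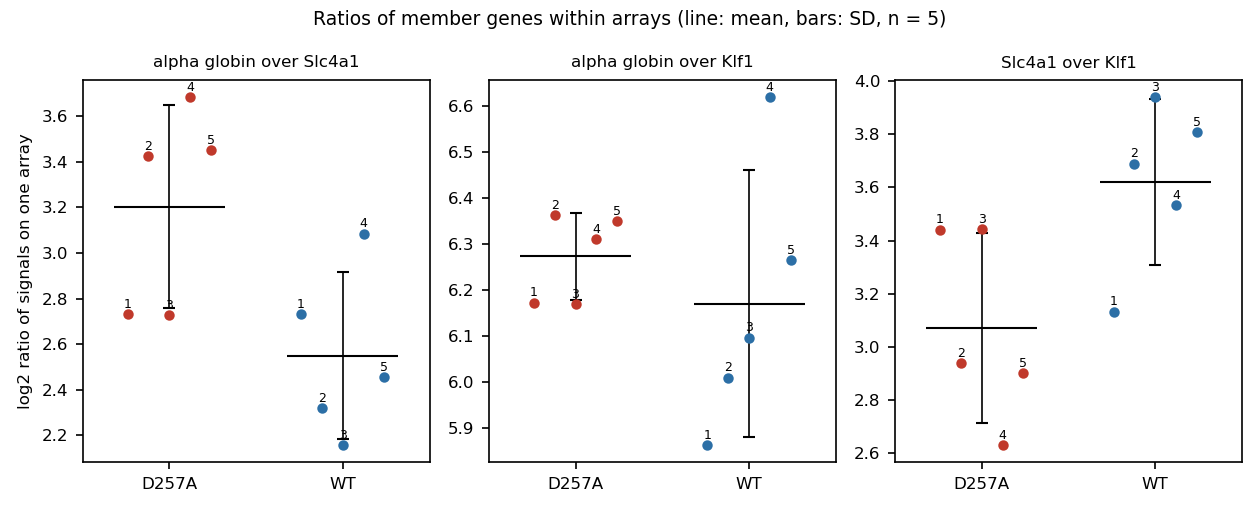
Log2 ratio of 2 member signals on each array (vertical axes, not from 0), with D257A on the left and WT on the right, replicate numbers beside the points, the mean as a line and the SD as bars (n = 5 each). In both panels with Slc4a1, D257A replicates 2, 4 and 5 lie outside the WT range and replicates 1 and 3 within it.

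Other genes of the red cell line were taken from 5 lists, 53 genes in all, of which 40 had a probe set in the tested range. Of these, 1 was called lower and 0 higher, against 1.66% and 0.657% of all 11871 tested genes, and 3 of the 40 had an unadjusted p under 0.05, against 16.7% of all tested genes. The fold change was negative for 27 of the 40, against 52.9% of all tested genes, with a median log2 value of -0.110, against -0.0223. The lists were not restricted to genes made only in red cells, so other cells of the tissue may add to these signals. Slc25a37, mitoferrin 1, which brings iron into the mitochondria of red cell precursors for heme synthesis, was the gene called. Its signal was 5356.8, 4409.3, 5472.0, 3594.2 and 3013.9 in D257A cochleae, against 7037.5, 10340.3, 5913.0, 7815.6 and 8680.2 in WT cochleae. Every D257A array lay below every WT array. The log2 fold change was -0.87 (SE 0.21, limma adjusted p = 0.0486). The value stands close to the threshold: the adjusted p was 0.0605 with quantile normalization, 0.0555 with no filter and 0.0560 with no intensity trend. Of the 10 fits that each left out 1 array, the one without WT replicate 3 (adjusted p = 0.0326) kept the call, and the other 9 lost it, with up to 0.145 without WT replicate 2.

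Of the other 10 tested genes of heme and iron supply, none was called. Cpox, coproporphyrinogen oxidase of the heme pathway, had means of 2152 ± 661 in D257A and 1239 ± 357 in WT (SD, n = 5 each), with a log2 fold change of 0.77 (limma adjusted p = 0.184). It passed without D257A replicate 2, with 1.01 and an adjusted p of 0.0428, and without that array and WT replicate 3, with 0.86 and 0.0401. In this list 4 genes had a positive and 7 a negative value.

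Among 8 tested genes of late red cell maturation, 2 had a positive and 6 a negative value (median -0.125), and none was called. Bpgm, the mutase that makes the phosphate compound regulating oxygen release, averaged 3461 ± 1075 in D257A and 5976 ± 1230 in WT (SD, n = 5 each), with a log2 fold change of -0.82 (unadjusted p = 0.00319, limma adjusted p = 0.0833). Trim10, a protein of terminal red cell differentiation, had a log2 fold change of -0.28 (limma adjusted p = 0.637), and of -0.086 without D257A replicate 2. The list's mean centred log2 signal was 0.302, -0.746, 0.303, -0.156 and -0.154 in D257A replicates 1 to 5, against -0.127, 0.139, -0.016, 0.069 and 0.386 in WT. D257A replicate 2 was lowest, and a single gene of the list, Blvrb, added much to this. Blvrb read 111.8 on that array, against 2330.3 to 3472.4 on the other D257A arrays. The list's mean without Blvrb was not computed.

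Of 10 other tested membrane and skeleton genes, 2 had a positive and 8 a negative value (median -0.197), and none was called. Dmtn, dematin, which bundles actin in the skeleton, had a log2 fold change of -0.50 (limma adjusted p = 0.476), and of -0.18 without D257A replicate 2, which held its lowest signal. Kcnn4, the calcium-gated potassium channel, had one of -0.30 (limma adjusted p = 0.499). Of 11 other regulators, 5 had a positive and 6 a negative value (median -0.082), with none called. Lmo2, a bridging protein of the GATA1 complex, had 2715 ± 630 in D257A and 2013 ± 304 in WT (SD, n = 5 each), a log2 fold change of 0.41 (limma adjusted p = 0.318). Zfpm1, the GATA1 cofactor FOG1, had one of 0.36 (limma adjusted p = 0.449). Embryonic globins, made before birth, were near the floor: Hba-x was at 19.4 to 68.0 in D257A and 37.8 to 241.7 in WT, and Hbb-y at 18.0 to 42.8 in D257A and 9.9 to 32.2 in WT.

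**Figure D3:**
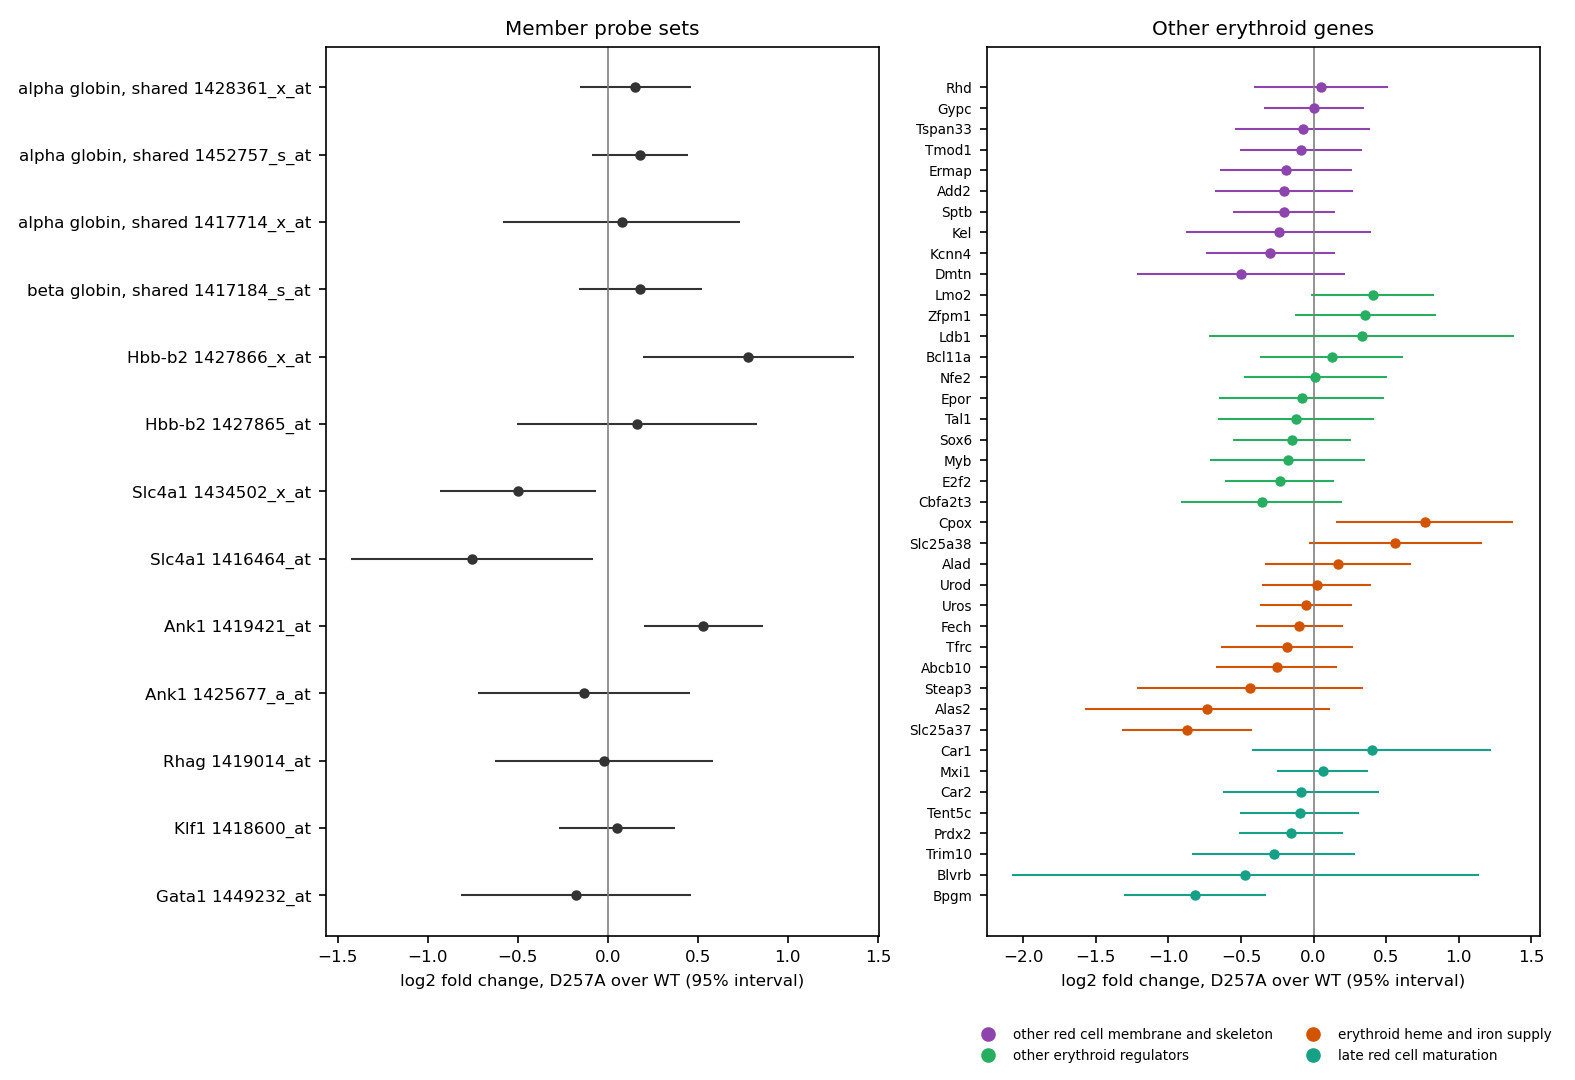
Log2 fold change of D257A over WT (horizontal axes) with its 95% interval, for the 13 tested member probe sets on the left and the 40 tested genes of the other erythroid lists on the right, coloured by list. The intervals of Hbb-b2 1427866_x_at and Ank1 1419421_at lie above 0 and those of both Slc4a1 probe sets below it. Among the other genes those of Slc25a37 and Bpgm lie below 0 and that of Cpox above it.

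The mean centred log2 signal over the 8 members in the tested range, Hba-a1 and Hbb-b1 by their shared probe sets, was 0.022, 0.390, 0.030, -0.077 and -0.050 in D257A, against -0.190, -0.019, 0.171, -0.195 and -0.082 in WT. It was highest on D257A replicate 2 and WT replicate 3, the arrays that stood apart. With group means removed, its correlation over 10 arrays was 0.764 with Hbb-b2, 0.703 with Klf1, 0.662 with Slc4a1, 0.651 with Gata1, 0.422 with alpha globin, 0.412 with beta globin, 0.365 with Rhag and -0.139 with Ank1, each of which is part of the mean. Of 11865 other genes compared, the most like it were Sfxn1, a mitochondrial serine carrier, at 0.982, then Abhd6 and Epc2 at 0.964, Sema3a at 0.961, Ccar1 at 0.945, Slc38a6 at 0.941, and Arhgap30 and Cnot6 at 0.940. As the highest of so many, these values are high partly by selection. Over the 8 arrays without the outlying ones, Sfxn1 kept 0.878, Arhgap30 0.785, Sema3a 0.759, Epc2 0.731, Abhd6 0.729, Ccar1 0.646, Cnot6 0.621 and Slc38a6 0.458. The arrays are shared by all genes, so these values describe likeness on the same 10 arrays only.

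**Figure D4:**
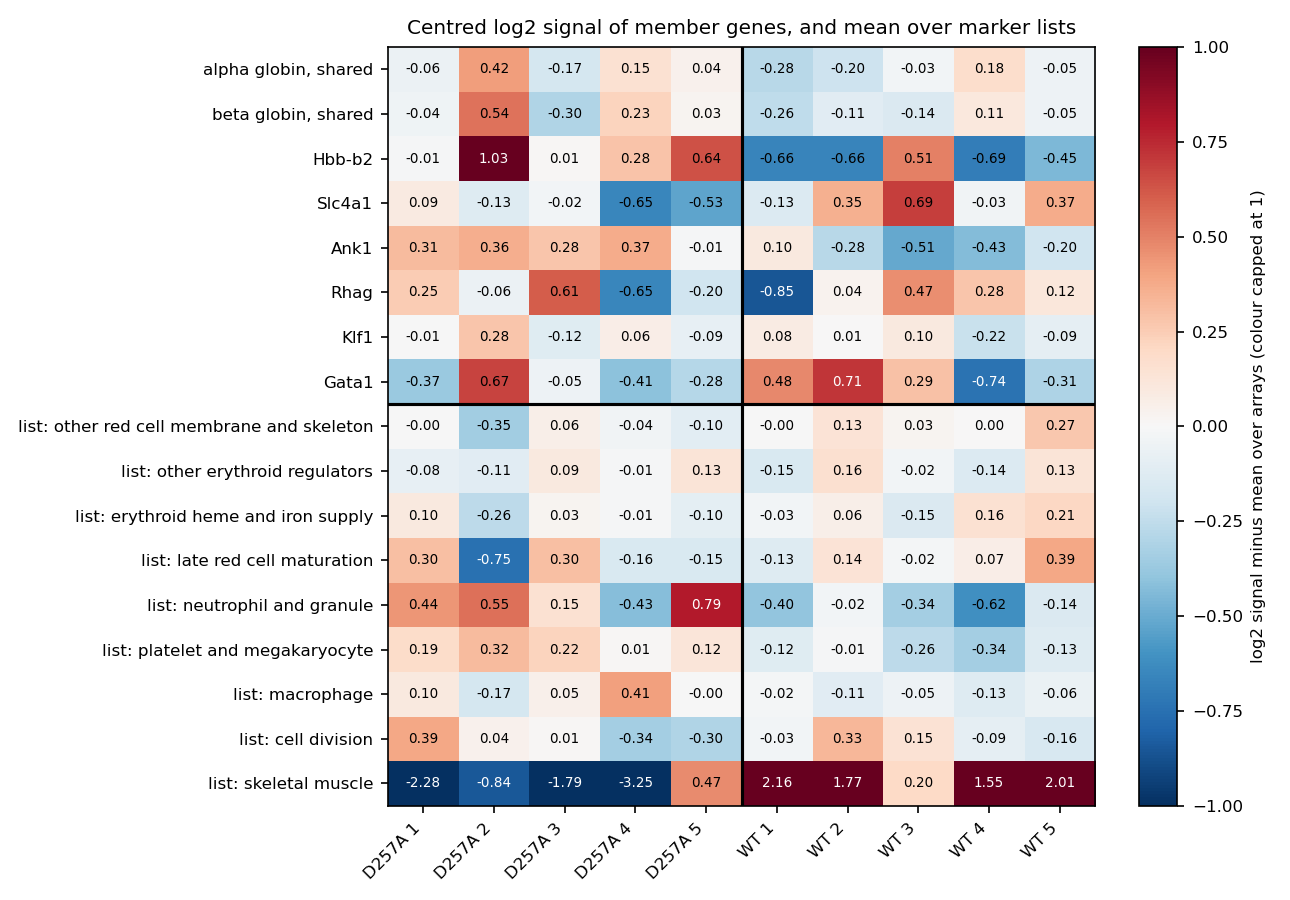
Centred log2 signal (colour and printed value, colour capped at 1) on the 10 arrays, D257A columns left of WT columns, with the 8 member genes, each by its brightest probe set, in the upper block and the mean of each marker list in the lower. Hbb-b2 is highest on D257A replicate 2, Slc4a1 on WT replicate 3, and skeletal muscle markers are low on D257A replicates 1 to 4.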

How the data were processed

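Biotin-labelled RNA was hybridised to 10 mouse arrays, per the labels' protocols. Each deposited value is the linear intensity of a probe set on an array, which the authors obtained with GCOS 1.3 according to the submitters' processing notes. How background and probes were handled is not given in the sources used here. No detection call or scan date was used, so no batch was tested. Of 45101 probe sets, 64 controls filled on D257A replicate 5 only were left out. In the platform annotation 34945 had 1 gene, 932 several and 9160 none. Members include the 4 probe sets that list several globin genes. Other genes took their brightest probe set.

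Signals were taken as log2(signal + 16), so fold changes of dim genes are understated. The brighter 50% by mean (22518, from a signal of 577 upwards) entered a limma model (version 3.58.1 under R 4.3.3, lmFit and trended eBayes) with group as its term, two-sided, with Benjamini-Hochberg adjustment over all of them at 0.05. Ratios used exact permutation tests (scipy 1.17.1). The fit was tested on simulated data, drawn as independent normal values with the same spread on every array, so outlying arrays were not covered. Named were all members, in the erythroid lists each called gene and the 2 with the smallest p, and the 8 genes most like the members. Members and lists were chosen with earlier results of these data known. Alternatives were a pseudocount of 1 or 64, quantile normalization, median centring, no filter, the brightest 30%, no trend, array weights, the replicate block, arrays left out, the study's threshold and gene means.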

Additional observations from a re-analysis of the deposited data

Results flagged for a closer look

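Among 34 sets of 5 arrays examined (17 member probe sets in each group), 4 had 1 array far from the other 4. Chance gives such a flag in about 1 of 20 sets. For Hbb-b2 1427866_x_at, WT replicate 3 was highest at 4234.5, with the next WT array at 2181.9. For Ank1 1419421_at, D257A replicate 5 was lowest at 11824.7, with the next D257A array at 14438.9. For Ank1 1425677_a_at, WT replicate 3 was lowest at 900.5, with the next WT array at 2003.6. For Ank1 1443291_at, below the tested range, D257A replicate 1 was lowest at 141.7, with the next D257A array at 508.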

How the results depend on the processing

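Of all tested probe sets 513 were called, against 322 in the brightest 30%, 1217 with array weights, 188 with the replicate block, 3809 at the study's threshold, and 168 (without WT replicate 2) to 574 (without WT replicate 3) with 1 array left out. With arrays centred on the median the median log2 fold change was -0.101, and 174 were called higher and 479 lower, against 233 and 280. Arrays with the same replicate number were not alike throughout (correlations of deviations from -0.337 to 0.183). D257A replicates 1 and 5 matched the WT array of their own number best and the other replicates did not, so pairing was not settled. With the replicate block 0 members and 0 other erythroid genes were called. Member probe sets called numbered 0, against 1 with array weights, 1 without both outlying arrays, 4 at the study's threshold and 0 to 1 with 1 array left out, the 1 being Hbb-b2 1427866_x_at each time. Other erythroid genes called numbered 1, against 0 with quantile normalization, 0 with no filter, 0 with no trend, 2 with array weights, 2 without both outlying arrays (Slc25a37 and Cpox both times), 3 at the study's threshold and 0 to 1 with 1 array left out (Cpox without D257A replicate 2, Slc25a37 without WT replicate 3). The sign turned for alpha globin 1417714_x_at (-0.023 with median centring, -0.138 to 0.295 with 1 array left out), Hbb-b2 1427865_at (-0.035 to 0.333), Rhag (0.022 with quantile normalization, 0.158 with array weights, 0.106 without both outlying arrays, -0.235 to 0.141 with 1 array left out) and Klf1 (-0.049 with median centring, -0.011 to 0.088). With 1 array left out, alpha globin over Slc4a1 differed by 0.533 to 0.787 and Slc4a1 over Klf1 by -0.673 to -0.441, with adjusted p at 0.0476 without D257A replicate 3 for both and without WT replicate 1 for Slc4a1 over Klf1. The causes were not tested. The number of arrays limits every value.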

Other observations

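Within D257A cochleae, replicates 1 and 3 held the highest 2 values for 11 of the 40 other erythroid genes tested (27.5%: Bpgm, Car1, Car2, Cpox, E2f2, Gypc, Kel, Rhd, Slc25a37, Tal1 and Trim10) and for 2 of the 8 member genes, Rhag and Slc4a1, against 13.7% of all 11871 tested genes. Of 7 cell division markers it held for 4 (Birc5, Ccna2, Ccnb2 and Mki67), of 12 cochlear markers for 3 (25%: Gjb2, Gjb6 and Otos), of 4 mast cell markers for 1 (Kit), and of 13 neutrophil and granule markers for 0. The share is thus about as high among cochlear markers as among the erythroid genes. These replicates were chosen after the Slc4a1 values had been seen, so the counts are a description.

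Hba-a2, the second alpha globin gene, has 1 dim probe set of its own, 1427219_at, outside the tested range. It read 313.1, 360.2, 308.6, 423.5 and 487.3 in D257A, against 263.3, 257.2, 170.6, 147.3 and 221.0 in WT cochleae, with every D257A array above every WT array. The log2 fold change was 0.80 and the adjusted p 0.185 in the limma fit with no filter, while the groups overlapped for the 3 bright probe sets that Hba-a2 shares with Hba-a1. In the tested range 2.47% of probe sets had every D257A array above every WT array, and the share outside it was not counted. With no filter the median log2 fold change over all probe sets was 0.0917, against -0.00054 in the tested range. With the authors' scaling, dim probe sets thus ran higher in D257A as a class, relative to bright ones. With arrays centred on the median, the median in the tested range was -0.101, and the dim probe sets were not fitted that way.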
